A study of Mus musculus with 6 samples.

Results

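The Hox genes were followed across 3 lines of immortalized murine embryonic fibroblasts (MEF): wild type (WT), knock out for TIA1 (TIA1 KO) and knock out for TIAR (TIAR KO). All probes that the scanner files name as Hoxa, Hoxb, Hoxc or Hoxd followed by a number were taken, which gave 44 of the 55681 probes on the array and all 39 genes of the 4 clusters. The Hoxa cluster held 11 genes, the Hoxb cluster 10, the Hoxc cluster 9 and the Hoxd cluster 9. Each gene was read from its brightest probe, that is the probe with the highest mean over the 6 arrays, and 5 genes had a second probe. RNA of each line was hybridized to 2 one-colour arrays, 6 in all on 1 slide, from samples that the study calls biological. The strain is given as W4 for WT, BALB/c for TIA1 KO and C57BL/6 for TIAR KO, so that genotype, strain and the history of each line cannot be told apart. The part of the embryo and whether a line is 1 clone were not given in the sources used here, and the study names the stage of the embryos only in general, without tying it to a line. TIA1 and TIAR are RNA-binding proteins of mRNA splicing and translation, and TIAR is the product of the gene Tial1.

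Hox genes encode homeodomain transcription factors that give cells their position along the body axis and the limbs. They lie in 4 clusters, and genes with the same number in different clusters, called paralogues, descend from one ancestral gene. Low numbers are used in the head and neck and high numbers in the lower trunk, the limb ends and the genitalia. Cultured fibroblasts are known to keep the Hox pattern of the site they came from. Below, numbers 1 to 3 are called anterior, 4 to 8 central and 9 to 13 posterior.

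Values are log2 intensities after normalization across the 6 arrays, and the levels of different Hox genes were not compared. By the scanner software's rating, the probes well above background numbered 23569 and 26295 (WT), 16021 and 19996 (TIA1 KO) and 24796 and 26011 (TIAR KO). The TIA1 KO arrays therefore measured fewer probes, and the first of them had the highest negative controls, at a median intensity of 196 against 112 and 103 in WT. Hox probe values not well above background lay between 6.19 and 8.85, with a median of 6.98. Where a probe was not well above background on either array of the lower group, the difference is given as a lower limit ("at least"). It sets the mean of the higher group against the lowest value rated above background on each array of the other group, or the probe's own value if that was higher. Medians, plots and values of refits that left out an array or changed the processing use fitted differences, also for such probes. Differences are log2 fold changes ± the standard error (SE) of a limma fit on the 4 arrays compared, and a probe was called where the fold change passed 2 and the adjusted p was under 0.05.

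The knocked-out genes were read first. The brightest Tia1 probe gave 10.72 and 8.54 (WT), 7.87 and 8.44 (TIA1 KO) and 9.56 and 9.58 (TIAR KO), so the TIA1 KO arrays were the lowest of the 3 groups, with -1.47 ± 0.79 (SE, n = 2 against 2, limma adjusted p = 0.288), which did not pass. The Tial1 probe measured on all arrays gave 11.71 and 11.09 (WT), 11.85 and 11.49 (TIA1 KO) and 10.000 and 9.65 (TIAR KO), and TIAR KO was lower than WT by a log2 fold change of -1.58 ± 0.26 (SE, n = 2 against 2, limma adjusted p = 0.0254). The brightest Tial1 probe was left out on the first WT array as an outlier spot and gave 9.57 and 11.60 on the TIAR KO arrays against 13.22 on the other WT array. Of 10 fibroblast markers, 7 were called higher in TIA1 KO, 8 in TIAR KO and 0 lower in either, beside 2.18% and 3.39% of all probes called higher and 1.36% and 2.37% called lower. Their summed intensities were 533500 and 567100 (WT), 1315000 and 1290000 (TIA1 KO) and 1392000 and 1419000 (TIAR KO), and S100a4 was the brightest. Vim and Col1a1 were far above background on all arrays, whereas Pdgfra, the PDGF receptor used to mark fibroblasts, was not above background on either WT array (6.37 and 6.40 (WT), 10.05 and 10.23 (TIA1 KO) and 11.68 and 11.51 (TIAR KO)). The mesenchymal marker Thy1 was not above background on the first WT array or on either TIA1 KO array. Whether this difference in the level of fibroblast markers had a part in the Hox values was not tested, and in such bulk RNA fewer cells of a type and less RNA per cell cannot be told apart.

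Probes of genes with large changes in either knockout, chosen after their values were seen, are shown by their first 30 of 60 bases, in the orientation in which the files give them, with the position of the whole probe on mm9. In all pairs of probes for different Hox genes, the longest run of bases shared was 11.
Hoxa7 (chr6:52165626-52165685, minus strand): gacagttggaaaagcgtctttaagagactc
Hoxa11 (chr6:52192107-52192166, minus strand): tgaatgtatgcttcatacagggatggtgtt
Hoxb2 (chr11:96215122-96215181, plus strand): tggtaaaactccttccaacgaaatctcagg
Hoxb6 (chr11:96162563-96162622, plus strand): tcgagtctcatttcgtccatgtcccccgtg
Hoxd8 (chr2:74545171-74545230, plus strand): gtttgcctcaacaacataaacttcctaatg
Hoxd10 (chr2:74532280-74532339, plus strand): gcgagcgccgcctagagatcagtaagagcg
Hoxd13 (chr2:74509248-74509307, plus strand): aaatgttgcgtatttatgggactgaaagat

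Of the 39 Hox genes, 34 were well above background on at least 1 array and 31 on both arrays of at least 1 group. Both WT arrays measured 22 genes (56.4%), both TIA1 KO arrays 7 (17.9%) and both TIAR KO arrays 24 (61.5%), beside 41.3%, 25.7% and 42.6% of all probes. Hoxa7 was above background on all 6 arrays. Hoxb1, which patterns the hindbrain, Hoxc8, Hoxc11, Hoxc12 and Hoxd12 were above background on 0 of 6 arrays. In TIA1 KO no gene of the Hoxb or Hoxc cluster was above background on both arrays, whereas 5 of 11 Hoxa and 2 of 9 Hoxd genes were. In TIAR KO 8 of 10 Hoxb genes, 6 of 9 Hoxc genes, 6 of 11 Hoxa genes and 4 of 9 Hoxd genes were.

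**Figure D1:**
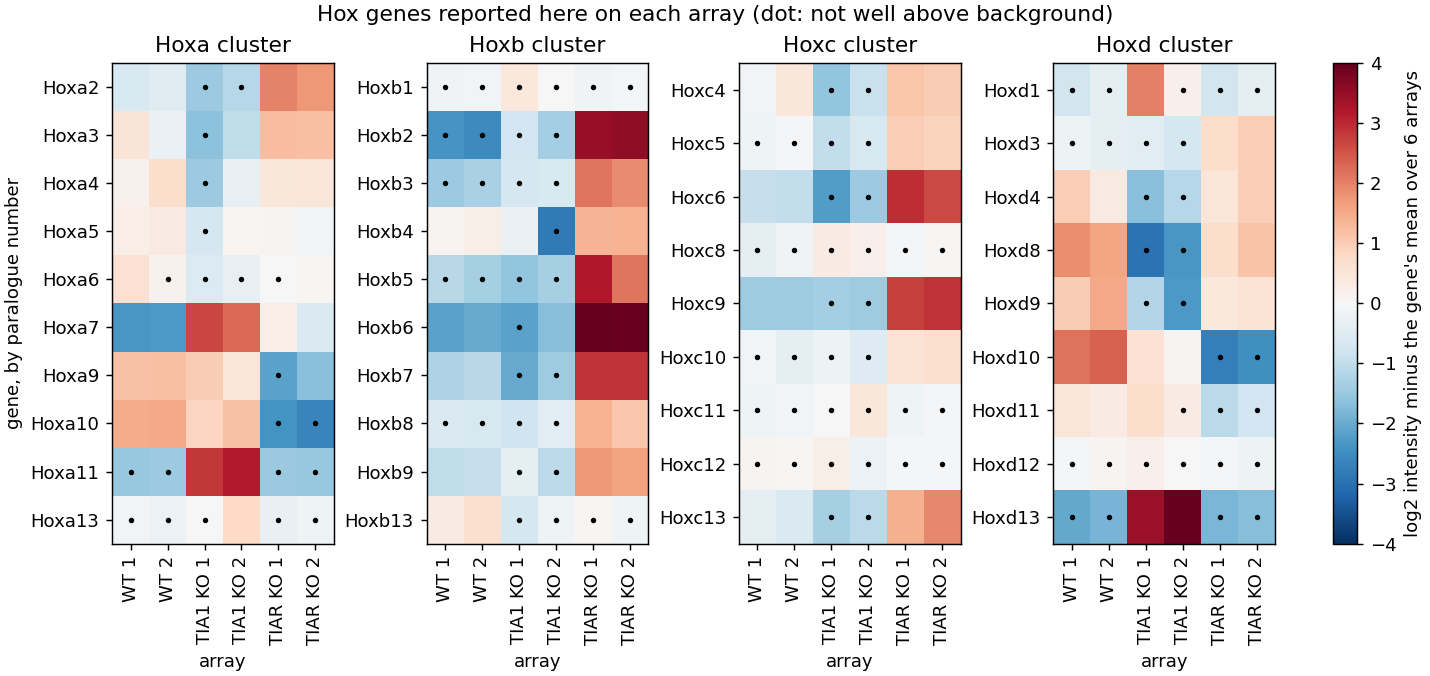
Log2 intensity of the Hox genes reported here on each of the 6 arrays (columns) minus that gene's mean over the arrays, by cluster, with colours ending at 4 on either side and a dot where the probe was not well above background. The block of high values in the 2 TIAR KO columns covers Hoxb2 to Hoxb9, whereas the 2 TIA1 KO columns are high at Hoxa7, Hoxa11 and Hoxd13.

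The comparison of TIAR KO with WT asked which Hox RNAs differed between these lines. In TIAR KO 15 of 39 Hox genes were higher, 4 were lower and 20 were not called. By probe, 16 of 44 were higher and 6 lower, while of all 55681 probes 5.76% were called, 3.39% as higher and 2.37% as lower. The median log2 fold change was 0.18 over the 39 genes and -0.02 over all probes, and the median of its size was 1.07 over the Hox probes against 0.20. The genes that rose were 8 of 10 in the Hoxb cluster, 4 of 9 in Hoxc, 2 of 11 in Hoxa and 1 of 9 in Hoxd. The genes that fell were 2 in Hoxa and 2 in Hoxd, all posterior, and 0 in Hoxb and Hoxc. Of 8 anterior genes 4 rose, of 15 central genes 8 rose, and of 16 posterior genes 3 rose and 4 fell.

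All genes from Hoxb2 to Hoxb9 rose in TIAR KO, and the genes at the 2 ends of the cluster, Hoxb1 and Hoxb13, were not called. The probe of Hoxb6, a gene of the thoracic region, gave 8.26 and 8.36 (WT), 8.26 and 8.69 (TIA1 KO) and 14.41 and 14.35 (TIAR KO). Both TIAR KO arrays were far above the other 4. Hoxb6 was higher in TIAR KO than in WT by 6.07 ± 0.14 (SE, n = 2 against 2, limma adjusted p = 0.000176), about 67.1-fold. Hoxb2, a hindbrain gene, read 6.56 and 6.38 (WT), 8.16 and 7.56 (TIA1 KO) and 12.41 and 12.49 (TIAR KO). It was above background in TIAR KO alone, and was at least 47.2-fold higher than in WT (n = 2 against 2, limma adjusted p = 0.000176). For Hoxb3 the values were 6.66 and 6.81 (WT), 7.44 and 7.52 (TIA1 KO) and 10.28 and 10.02 (TIAR KO), again above background in TIAR KO alone, which made it at least 8.89-fold higher (n = 2 against 2, limma adjusted p = 0.000566). Its other probe rose as well (7.31 and 7.15 (WT) against 8.78 and 9.01 (TIAR KO)). Hoxb4, known for the expansion of blood stem cells, was already measured in WT. It read 10.53 and 10.65 (WT), 10.16 and 7.58 (TIA1 KO) and 11.78 and 11.83 (TIAR KO), and the 2 TIA1 KO arrays differed more from each other than WT did from TIAR KO. Hoxb4 was higher in TIAR KO by 1.21 ± 0.14 (SE, n = 2 against 2, limma adjusted p = 0.00908) (smaller than the measured differences of the other 7 genes that rose). Its call was lost without the second TIAR KO array (1.18, limma adjusted p = 0.0579), with the processed intensities (1.07, limma adjusted p = 0.127), with scaling to a common median (0.86) and with all 3 groups in 1 fit (limma adjusted p = 0.579).

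Hoxb5, which acts in the lung and the enteric nervous system, gave 7.25 and 7.04 (WT), 6.78 and 7.02 (TIA1 KO) and 11.57 and 10.49 (TIAR KO), with the 2 TIAR KO arrays about 1 log2 unit apart and both above the other 4. It was at least 14.8-fold higher in TIAR KO (n = 2 against 2, limma adjusted p = 0.00425). Hoxb7 gave 8.01 and 8.14 (WT), 7.24 and 7.85 (TIA1 KO) and 12.16 and 12.15 (TIAR KO). The TIAR KO arrays stood above all others, and the difference from WT was 4.08 ± 0.14 (SE, n = 2 against 2, limma adjusted p = 0.000284). Hoxb8, a gene that holds back the maturation of blood progenitors, read 6.76 and 6.71 (WT), 6.56 and 6.87 (TIA1 KO) and 8.73 and 8.42 (TIAR KO), above background in TIAR KO alone and at least 3.1-fold higher (n = 2 against 2, limma adjusted p = 0.00382). Hoxb9, a thoracic gene, had values of 7.53 and 7.65 (WT), 8.20 and 7.50 (TIA1 KO) and 10.29 and 10.17 (TIAR KO) and rose by 2.64 ± 0.15 (SE, n = 2 against 2, limma adjusted p = 0.000803). The genes between the 2 ends of the cluster were thus all called higher, Hoxb4 least firmly, and the size of the rise differed from gene to gene. Hoxb1 gave 6.59 and 6.61 (WT) against 6.57 and 6.65 (TIAR KO), below background on all arrays. Hoxb13, a gene of the prostate and the tail, read 7.77 and 8.08 (WT) against 7.52 and 7.27 (TIAR KO) and did not pass (at least 1.44-fold lower, limma adjusted p = 0.195).

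In the Hoxc cluster Hoxc5, Hoxc6, Hoxc9 and Hoxc13 rose in TIAR KO. Hoxc9, which sets the thoracic identity of motor neurons, gave 7.66 and 7.67 (WT), 7.73 and 7.68 (TIA1 KO) and 11.84 and 11.99 (TIAR KO). Only the TIAR KO arrays stood apart, and the log2 fold change was 4.25 ± 0.14 (SE, n = 2 against 2, limma adjusted p = 0.000268). Hoxc6, a gene of the forelimb level, read 8.46 and 8.41 (WT), 7.17 and 7.93 (TIA1 KO) and 12.35 and 12.04 (TIAR KO), with a change of 3.76 ± 0.17 (SE, n = 2 against 2, limma adjusted p = 0.000451). Hoxc13, needed for hair and nail keratins, gave 7.71 and 7.53 (WT), 6.78 and 7.005 (TIA1 KO) and 9.52 and 10.03 (TIAR KO) and rose by 2.16 ± 0.22 (SE, n = 2 against 2, limma adjusted p = 0.00514). For Hoxc5, the weakest of the 4, the values were 7.43 and 7.51 (WT), 6.61 and 6.95 (TIA1 KO) and 8.58 and 8.47 (TIAR KO). Hoxc5 was at least 2.07-fold higher (n = 2 against 2, limma adjusted p = 0.0144), and its call was lost when any 1 of the 4 arrays was left out, with log2 fold changes between 1.00 and 1.11. Hoxc4 (7.84 and 8.41 (WT) against 9.05 and 8.96 (TIAR KO)) was higher on both TIAR KO arrays without passing (limma adjusted p = 0.0897). Hoxc10 (7.14 and 6.90 (WT) against 7.80 and 7.92 (TIAR KO)) had a limma adjusted p of 0.0398, but its fitted fold change, against WT values at background, was below the threshold. It was at least 1.77-fold higher, and was called with the processed intensities (limma adjusted p = 0.0271) and with a normexp offset of 16 (limma adjusted p = 0.0396). Hoxc8, Hoxc11 and Hoxc12, which lie between or beside these genes, were at background in TIAR KO and in WT.

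In the Hoxa and Hoxd clusters the genes that rose in TIAR KO were anterior or central and those that fell were posterior. Hoxa2, which patterns the hindbrain and the face, gave 7.71 and 7.84 (WT), 6.88 and 7.18 (TIA1 KO) and 10.33 and 10.07 (TIAR KO). It rose by 2.42 ± 0.16 (SE, n = 2 against 2, limma adjusted p = 0.00145). Hoxa7, a thoracic gene, read 7.56 and 7.59 (WT), 12.58 and 12.17 (TIA1 KO) and 10.16 and 9.32 (TIAR KO), with no overlap among the 3 groups, and TIAR KO was higher than WT by 2.17 ± 0.29 (SE, n = 2 against 2, limma adjusted p = 0.0136). Without the first WT array the limma adjusted p of Hoxa7 was 0.0523. Hoxd3, a gene of the neck vertebrae, had values of 7.40 and 7.22 (WT), 7.20 and 6.89 (TIA1 KO) and 8.35 and 8.60 (TIAR KO) and was at least 2.24-fold higher (n = 2 against 2, limma adjusted p = 0.0168). Without the second WT array it no longer passed (1.07, limma adjusted p = 0.0696), nor without the second TIAR KO array (1.04, limma adjusted p = 0.0824).

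The genes that fell in TIAR KO were Hoxa9, Hoxa10, Hoxd10 and Hoxd11. Hoxd10, a gene of the limb and of lumbar motor neurons, gave 11.65 and 11.85 (WT), 10.07 and 9.59 (TIA1 KO) and 6.75 and 7.03 (TIAR KO). Its 3 groups did not overlap, with WT highest and TIAR KO at background, and it was at least 27.3-fold lower in TIAR KO (n = 2 against 2, limma adjusted p = 0.000288). Hoxa10, which patterns the thigh and the uterus, read 10.54 and 10.56 (WT), 9.92 and 10.21 (TIA1 KO) and 6.65 and 6.41 (TIAR KO). It was above background in WT and TIA1 KO and at background in TIAR KO, which made it at least 12.3-fold lower (n = 2 against 2, limma adjusted p = 0.000359). Hoxa9, best known from blood progenitors and leukaemia, gave 10.39 and 10.42 (WT), 10.23 and 9.70 (TIA1 KO) and 7.08 and 7.55 (TIAR KO) and fell, with a log2 fold change of -3.09 ± 0.20 (SE, limma adjusted p = 0.00127), and its other probe fell too (9.36 and 9.50 (WT) against 6.98 and 7.17 (TIAR KO)). Hoxd11, a forearm gene, had values of 8.28 and 8.13 (WT), 8.50 and 8.13 (TIA1 KO) and 6.72 and 7.04 (TIAR KO) and was at least 2.37-fold lower (n = 2 against 2, limma adjusted p = 0.0132). Its call was lost without the first WT array (-1.25, limma adjusted p = 0.0587) or the first TIAR KO array (-1.16, limma adjusted p = 0.0588). Hoxd8 and Hoxd9, the neighbours of Hoxd10, read 11.89 and 11.60 (WT) against 10.72 and 11.17 (TIAR KO) and 10.82 and 11.33 (WT) against 10.25 and 10.37 (TIAR KO), and did not pass (limma adjusted p = 0.105 and 0.11).

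**Figure D2:**
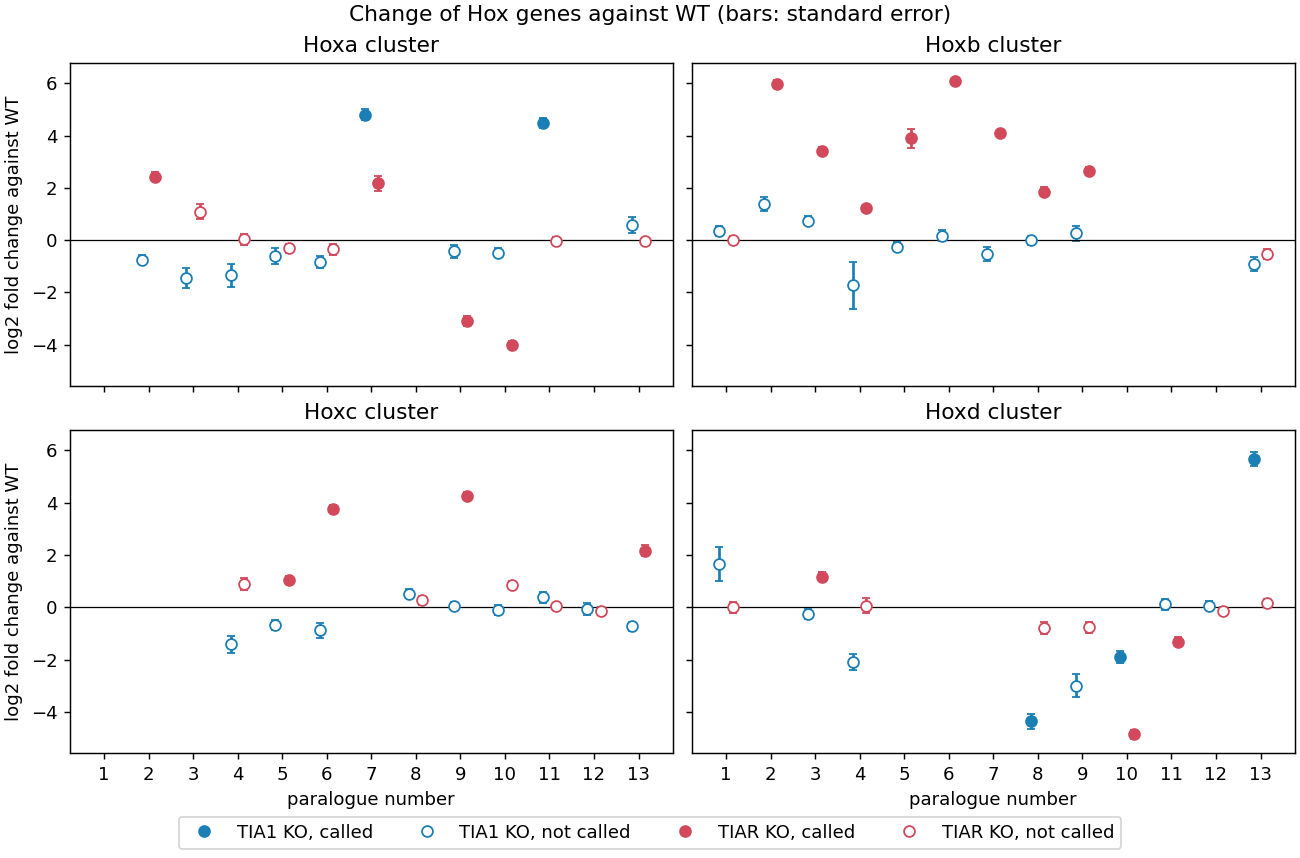
Log2 fold change against WT (y axis, bars are SE, 2 arrays against 2) of the Hox genes reported here by paralogue number (x axis), one panel per cluster, blue for TIA1 KO and red for TIAR KO, filled where called. The red points of Hoxb2 to Hoxb9 all lie above 0, those of Hoxa9, Hoxa10, Hoxd10 and Hoxd11 lie below, and the blue points of Hoxa7, Hoxa11 and Hoxd13 lie between 4.47 and 5.67, as fitted (for Hoxa11 and Hoxd13 against WT values at background).

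The comparison of TIA1 KO with WT asked the same question for the TIA1 KO line and used the same 2 WT arrays. In TIA1 KO 3 of 39 Hox genes were higher, 2 were lower and 34 were not called, beside 3.54% of all probes called, 2.18% as higher and 1.36% as lower. Hoxa7, Hoxa11 and Hoxd13 rose, and Hoxd8 and Hoxd10 fell. In the Hoxb and Hoxc clusters 0 of 19 genes were called. Scaled to a common median instead, which moved the median of all probes by -0.68, 4 Hox genes were called higher and 16 lower, beside 3.34% and 25.5% of all probes. With the processed intensities, which moved it by 1.98, 0 Hox genes and 0 of all probes were called. By limma without adjustment, 22 of the 44 Hox probes had a p under 0.05, beside 15484 of all 55681 probes. All 5 calls were lost when either WT array was left out, as were all calls among the 55681 probes. The fitted differences without the first or the second WT array were 4.79 and 4.81 for Hoxa7, 4.44 and 4.51 for Hoxa11, 5.58 and 5.76 for Hoxd13, -4.22 and -4.51 for Hoxd8 and -2.02 and -1.83 for Hoxd10. Without the first TIA1 KO array 7 Hox probes were called (3 higher, 4 lower), beside 5.52% of all probes, and without the second TIA1 KO array 15 (5 higher, 10 lower), beside 19.3%.

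Hoxd13, which patterns the digits and the genitalia, rose in TIA1 KO. Its probe gave 6.43 and 6.61 (WT), 11.90 and 12.48 (TIA1 KO) and 6.65 and 6.76 (TIAR KO). It was above background on both TIA1 KO arrays and on 0 of the other 4, and was at least 39.2-fold higher than in WT (n = 2 against 2, limma adjusted p = 0.00549). Hoxa11, a gene of the forearm, the kidney and the uterus, read 6.82 and 6.89 (WT), 11.16 and 11.50 (TIA1 KO) and 6.85 and 6.82 (TIAR KO), each the mean of 10 spots. It was likewise above background in TIA1 KO alone and was at least 19.6-fold higher (n = 2 against 2, limma adjusted p = 0.00517). Hoxa7 read 7.56 and 7.59 (WT) against 12.58 and 12.17 (TIA1 KO), with no overlap. Its rise was 4.80 ± 0.20 (SE, n = 2 against 2, limma adjusted p = 0.0053). The neighbours of these genes did not pass. Hoxa13, which acts with Hoxd13 in the digits, gave 7.11 and 6.98 (WT) against 7.22 and 8.03 (TIA1 KO). Hoxd12 was at background on all arrays, and Hoxd11 had a log2 fold change of 0.11. The second Hoxd11 probe differed in sign and was at least 1.89-fold lower (n = 2 against 2, limma adjusted p = 0.0819), which did not pass.

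The genes that fell in TIA1 KO, Hoxd8 and Hoxd10, lie on either side of Hoxd9 in the Hoxd cluster. Hoxd8, expressed in the trunk, gave 11.89 and 11.60 (WT), 7.07 and 7.69 (TIA1 KO) and 10.72 and 11.17 (TIAR KO). WT and TIAR KO were measured on all arrays and TIA1 KO on 0 of 2, so that Hoxd8 was at least 14.8-fold lower in TIA1 KO (n = 2 against 2, limma adjusted p = 0.00994). Hoxd10 read 10.07 and 9.59 in TIA1 KO, below both WT arrays, and its log2 fold change was -1.92 ± 0.23 (SE, n = 2 against 2, limma adjusted p = 0.0367). The call was lost in the authors' log2 table, at a limma adjusted p of 0.0558. Hoxd9, which lies between them, gave 10.82 and 11.33 (WT) against 8.63 and 7.51 (TIA1 KO), was at least 8.02-fold lower (n = 2 against 2, limma adjusted p = 0.0532) and missed the threshold. It passed in 7 of 13 settings, the authors' log2 table among them (limma adjusted p = 0.0446), where 0.787% of all probes were called lower. Hoxd4, a neck gene, gave 9.19 and 8.57 (WT) against 6.52 and 7.05 (TIA1 KO). It was at least 2.54-fold lower (n = 2 against 2, limma adjusted p = 0.0548) and missed the threshold too, but passed in 4 of 13 settings. For both genes 1 of the settings passed was scaling to a common median, where 25.5% of all probes were called lower. Hoxb4 and Hoxd1 had 1 high and 1 low TIA1 KO array: 10.16 and 7.58 for Hoxb4, 9.48 and 7.68 for Hoxd1, a gene of sensory neurons. For these genes the spread between the replicates was wider than for the called ones, with SEs of 0.90 and 0.65.

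**Figure D3:**
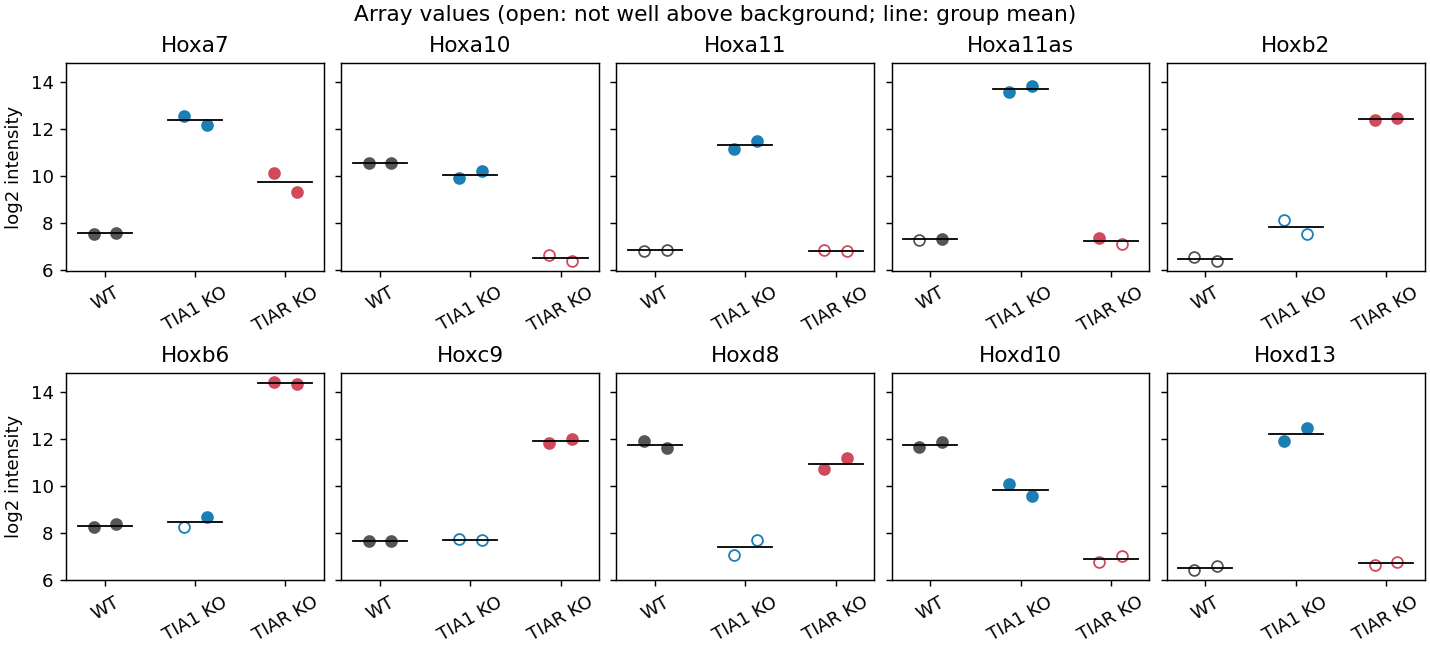
Log2 intensity (y axis) of 9 Hox genes and the antisense RNA Hoxa11as on each array, by group, with open points not well above background and lines at the group means. Hoxa11, Hoxa11as and Hoxd13 are high on the 2 TIA1 KO arrays, Hoxb2, Hoxb6 and Hoxc9 on the 2 TIAR KO arrays, and Hoxd8 is low in TIA1 KO while Hoxa10 and Hoxd10 are lowest in TIAR KO.

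Side by side, the 2 comparisons with WT share the WT arrays, so their values are given and no agreement between them is tested. Hoxa7 was called higher in both (4.80 in TIA1 KO and 2.17 in TIAR KO), and Hoxd10 lower in both (-1.92 for TIA1 KO, and at least 27.3-fold lower in TIAR KO). By paralogue, both number 2 genes, Hoxa2 and Hoxb2, rose in TIAR KO, as did both number 7 genes, Hoxa7 and Hoxb7. Of the number 9 genes, Hoxb9 and Hoxc9 rose in TIAR KO, Hoxa9 fell and Hoxd9 was not called. Of the number 10 genes, Hoxa10 and Hoxd10 fell in TIAR KO and Hoxc10 was not called. Of the number 13 genes, Hoxd13 rose in TIA1 KO and Hoxc13 in TIAR KO. Neither Hoxb1 nor Hoxd1 was called in either knockout. Hoxa3 (10.49 and 9.69 (WT), 8.31 and 8.94 (TIA1 KO) and 11.19 and 11.15 (TIAR KO)), Hoxa4 (9.09 and 9.59 (WT), 7.43 and 8.56 (TIA1 KO) and 9.34 and 9.39 (TIAR KO)), Hoxa5 (9.29 and 9.40 (WT), 8.35 and 9.11 (TIA1 KO) and 9.14 and 8.91 (TIAR KO)) and Hoxa6 (7.98 and 7.54 (WT), 6.82 and 7.04 (TIA1 KO) and 7.35 and 7.45 (TIAR KO)) were not called against WT either.

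The direct comparison of the knockouts tests whether they differ, without the WT arrays. In TIAR KO 17 of 39 Hox genes were higher than in TIA1 KO and 6 were lower, beside 3.35% of all probes called, 1.72% as higher and 1.63% as lower. The genes that were higher were Hoxb2, Hoxb3 and Hoxb5 to Hoxb9, Hoxc4, Hoxc5, Hoxc6, Hoxc9 and Hoxc13, Hoxa2 and Hoxa3, and Hoxd3, Hoxd4 and Hoxd8. The genes that were lower were Hoxa7, Hoxa9, Hoxa10 and Hoxa11 with Hoxd10 and Hoxd13. Those that were lower thus lay in the Hoxa and Hoxd clusters, and all but Hoxa7 were posterior. Hoxa7, called higher than WT in both knockouts, was lower in TIAR KO than in TIA1 KO, with a log2 fold change of -2.64 ± 0.35 (SE, limma adjusted p = 0.0443). Hoxd8 was at least 8.5-fold higher in TIAR KO (n = 2 against 2, limma adjusted p = 0.0185) and Hoxd13 at least 38.4-fold lower (n = 2 against 2, limma adjusted p = 0.00748). With the authors' log2 values 18 genes were called, 14 higher and 4 lower, beside 1.1% and 1.2% of all probes, and Hoxa3, Hoxa7, Hoxa9, Hoxb9 and Hoxd3 were lost. With the processed intensities, which moved the median of all probes by -1.85, 5 genes were called higher and 5 lower, beside 0.224% and 2.49% of all probes. With replicate number as a block in the fit, all calls of the main fit were lost, as were those among all probes, though nothing in the labels pairs the samples. The calls were also lost when either TIAR KO array was left out. The fitted differences without the first or the second TIAR KO array were -5.44 and -5.54 for Hoxd13, 3.79 and 3.34 for Hoxd8 and -3.05 and -2.22 for Hoxa7.

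Other probes lay among the Hox genes, on either strand, and 39 were inside the 4 clusters by their mm9 positions. Among them was Hoxa11as, the antisense RNA of Hoxa11, whose probe lies on the plus strand opposite Hoxa11. It gave 7.31 and 7.35 (WT), 13.59 and 13.83 (TIA1 KO) and 7.37 and 7.10 (TIAR KO). Hoxa11as was high on the same 2 arrays as Hoxa11, and it rose by 6.38 ± 0.17 (SE, n = 2 against 2, limma adjusted p = 0.00362). The 1 other probe of the Hoxa cluster that rose was a transcript named by an Ensembl identifier near Hoxa5 (6.90 and 6.88 (WT), 8.62 and 9.09 (TIA1 KO) and 6.72 and 7.13 (TIAR KO)), which was at least 3.53-fold higher (n = 2 against 2, limma adjusted p = 0.031). Hoxd3os1, a non-coding RNA on the minus strand near Hoxd8, gave 8.65 and 8.91 (WT), 6.36 and 7.05 (TIA1 KO) and 8.48 and 8.85 (TIAR KO) and was at least 2.37-fold lower in TIA1 KO (n = 2 against 2, limma adjusted p = 0.0479). Its other probe did not pass.

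In TIAR KO 6 of the 22 other probes inside the Hoxb cluster rose and 0 fell, beside the 3.39% and 2.37% of all probes. A transcript on the minus strand beside Hoxb7, opposite to that gene, gave 6.55 and 6.45 (WT), 6.90 and 7.32 (TIA1 KO) and 13.29 and 14.13 (TIAR KO). It was above background in TIAR KO alone and at least 113-fold higher (n = 2 against 2, limma adjusted p = 0.000367). All 3 probes of 1 lincRNA region between Hoxb5 and Hoxb4 rose, at least 7.37-fold, at least 8.02-fold and by 3.74 ± 0.17 (SE) on the log2 scale. The other 2 calls were single probes of lincRNA regions, 1 of 3 near Hoxb5 and 1 of 4 on its strand between Hoxb13 and Hoxb9. Inside the Hoxa, Hoxc and Hoxd clusters 0 of 17 other probes were called in TIAR KO. The 5 probes that the files name HOTAIR, an RNA made from the Hoxc cluster, were called in 0 of 3 comparisons, and 1 of them was above background on 2 arrays.

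Outside the clusters, 53 probes lay within 100 kb of the outermost Hox probes. Of these 0 were called in TIAR KO and 1, a lincRNA probe beside Hoxc, was called higher in TIA1 KO (1.42 ± 0.18, SE), beside 5.76% and 3.54% of all probes. Of the 15 genes measured among 16 listed as lying beside the clusters, 0 were called in TIA1 KO and 2 in TIAR KO (3.54% and 5.76% of all probes). These were Skap1, an adaptor of T cells (10.01 and 10.26 (WT) against 8.49 and 8.02 (TIAR KO)), and Smug1, a DNA repair enzyme (11.66 and 11.38 (WT) against 10.32 and 10.48 (TIAR KO)), both lower. The homeobox genes Evx1 and Evx2, which border Hoxa and Hoxd, did not pass. Evx1 was at background on all arrays, and the brighter Evx2 probe had log2 fold changes of 0.10 in TIAR KO and -0.58 in TIA1 KO. The other Evx2 probe was not above background on any array and differed in sign in TIA1 KO (0.35, as fitted).

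**Figure D4:**
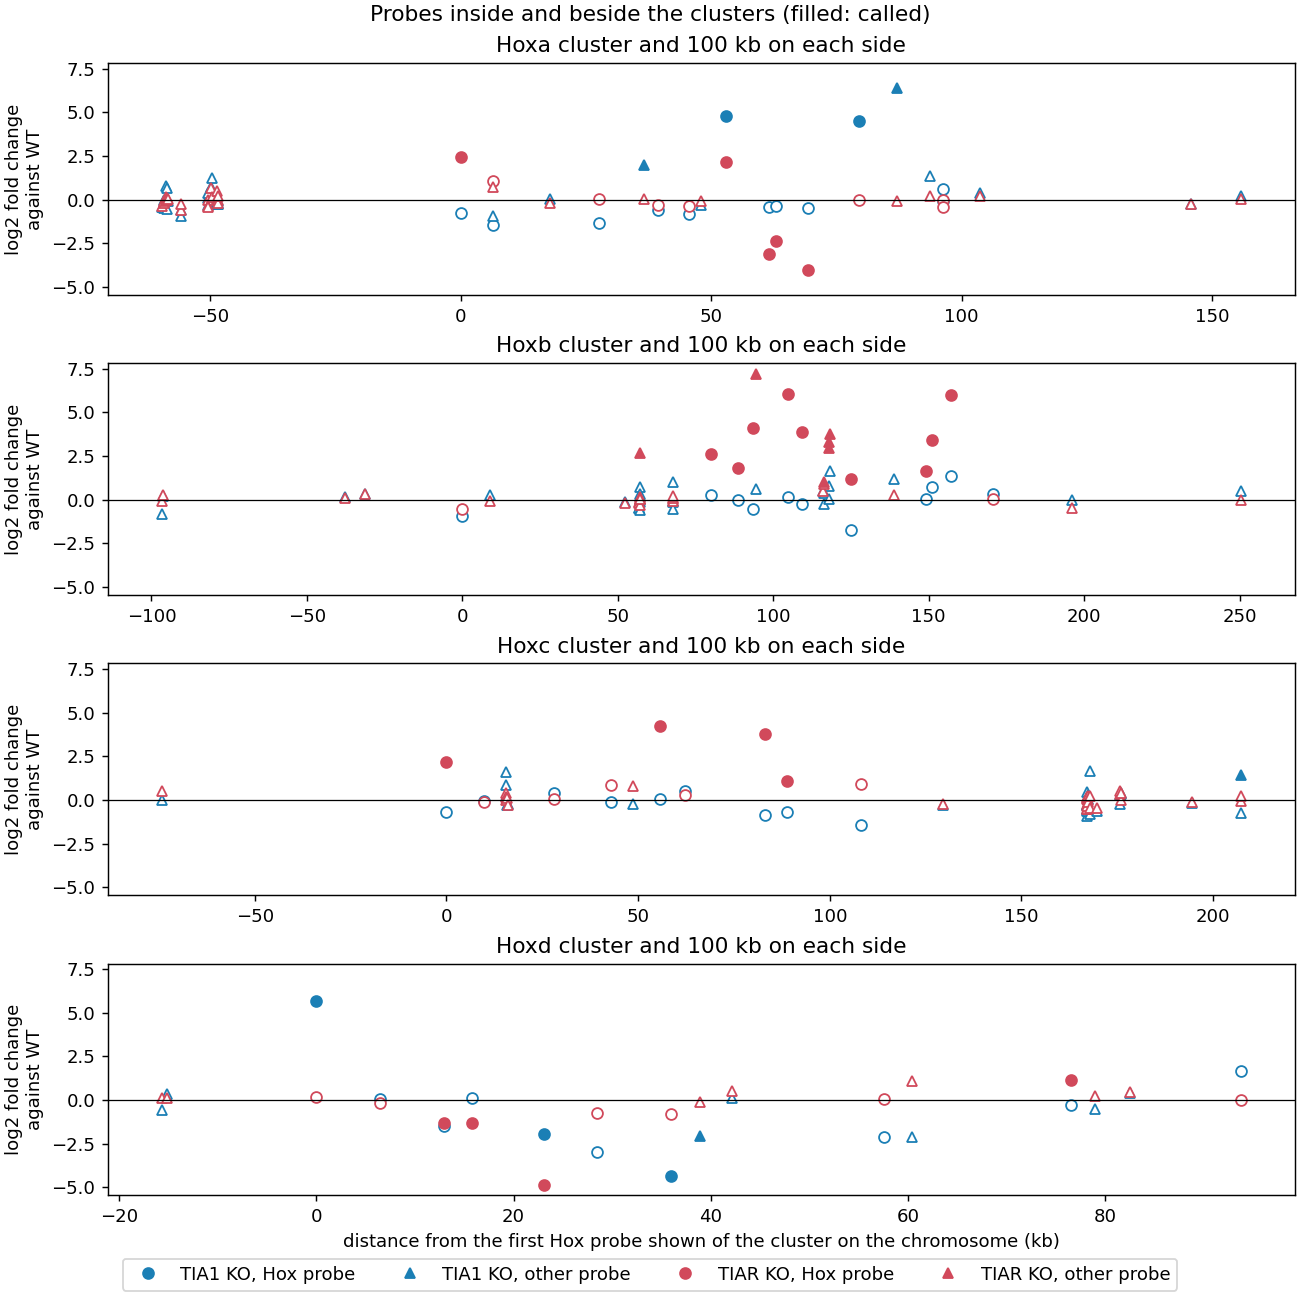
Log2 fold change against WT (y axis) of Hox probes (circles) and other probes (triangles) by distance in kb from the first Hox probe shown of each cluster, blue for TIA1 KO and red for TIAR KO, filled where called. In the Hoxb cluster the circles of Hoxb2 to Hoxb9 and 6 of 22 triangles are filled in red, and beside the clusters 1 of 53 probes is called.

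RefSeq promoter windows of GRCm38.p6, from 250 bases before to 50 after the start, were found for 22 of the 39 genes (24 windows). Below are 180 bases, 150 before and 30 after the start, of genes that moved: Hoxa7 (both knockouts), Hoxa11 and Hoxd13 (up in TIA1 KO), Hoxd8 (down in TIA1 KO), Hoxb8 (up in TIAR KO) and Hoxd10 (down in both). Capitals mark matches on either strand to the TATA box (TATAAA), the CCAAT box (CCAAT) or a site of Pbx and Hox proteins (TGATNNAT), where matches may overlap.
Hoxa7 (chr6:52218544-52218723, minus strand): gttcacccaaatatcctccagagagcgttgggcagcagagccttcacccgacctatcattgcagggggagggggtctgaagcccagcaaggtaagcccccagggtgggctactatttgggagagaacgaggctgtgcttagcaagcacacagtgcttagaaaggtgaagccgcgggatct
Hoxa11 (chr6:52245781-52245960, minus strand): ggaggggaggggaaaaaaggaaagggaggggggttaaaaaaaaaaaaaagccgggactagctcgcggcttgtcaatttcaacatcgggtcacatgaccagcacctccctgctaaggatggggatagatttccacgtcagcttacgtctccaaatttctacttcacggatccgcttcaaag
Hoxb8 (chr11:96281755-96281934, plus strand): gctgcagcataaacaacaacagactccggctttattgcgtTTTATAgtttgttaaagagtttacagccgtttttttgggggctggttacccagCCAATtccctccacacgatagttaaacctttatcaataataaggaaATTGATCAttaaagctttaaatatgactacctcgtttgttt
Hoxd8 (chr2:74704465-74704644, plus strand): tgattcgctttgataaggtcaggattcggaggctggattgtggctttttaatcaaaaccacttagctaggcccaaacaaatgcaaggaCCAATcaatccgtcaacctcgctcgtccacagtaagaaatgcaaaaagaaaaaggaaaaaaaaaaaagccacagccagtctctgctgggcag
Hoxd10 (chr2:74691741-74691920, plus strand): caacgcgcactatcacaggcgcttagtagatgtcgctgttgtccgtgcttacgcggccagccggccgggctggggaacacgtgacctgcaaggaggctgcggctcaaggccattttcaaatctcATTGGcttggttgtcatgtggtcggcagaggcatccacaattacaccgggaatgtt
Hoxd13 (chr2:74668075-74668254, plus strand): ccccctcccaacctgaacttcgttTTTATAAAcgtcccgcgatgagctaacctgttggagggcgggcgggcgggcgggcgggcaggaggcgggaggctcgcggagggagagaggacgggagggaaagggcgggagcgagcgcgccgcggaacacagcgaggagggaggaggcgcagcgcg

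CCAAT was found in 62.5% of the Hox windows and 37.4% of all 32851 windows of the same length, TATAAA in 16.7% and 13.6%, and TGATNNAT in 16.7% and 8.85%. Hox windows held a median of 14.5 CG dinucleotides and all windows 7. In the stretches shown Hoxb8 held all 3 motifs and Hoxa7 and Hoxa11 none. These matches describe letters, and no binding was measured.

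Hox proteins bind DNA together with TALE cofactors of the Pbx, Meis and Pknox families. Of 9 such genes, 2 were called higher and 1 lower in TIA1 KO, and 2 higher and 0 lower in TIAR KO (beside 2.18%, 1.36%, 3.39% and 2.37% of all probes), with medians of -0.12 and 0.78. Meis1 gave 9.43 and 9.38 (WT), 10.83 and 10.91 (TIA1 KO) and 12.57 and 12.63 (TIAR KO), with no overlap among the 3 groups. It rose by 1.47 ± 0.15 (SE, n = 2 against 2, limma adjusted p = 0.0264) in TIA1 KO and 3.20 ± 0.14 (SE, n = 2 against 2, limma adjusted p = 0.00044) in TIAR KO. Pknox2 read 7.03 and 6.67 (WT), 9.56 and 9.79 (TIA1 KO) and 9.83 and 10.82 (TIAR KO), at background in WT alone, and was at least 6.71-fold higher in TIA1 KO and at least 10.5-fold higher in TIAR KO (limma adjusted p = 0.0139 and 0.00537). Pbx4 was at least 1.91-fold lower in TIA1 KO (n = 2 against 2, limma adjusted p = 0.0281). The probes of Meis3 differed in sign in TIA1 KO (0.98, -1.85 and, for the last, at least 1.77-fold lower).

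Polycomb proteins hold Hox clusters silent and Trithorax proteins keep them active. Of 22 Polycomb genes 0 were called in TIA1 KO, beside 3.54% of all probes. In TIAR KO, where 5.76% of all probes were called, 2 rose, Cbx2 among them (9.65 and 9.36 (WT) against 11.09 and 11.12 (TIAR KO)), and Phf19 (11.58 and 12.16 (WT) against 7.95 and 7.51 (TIAR KO)) and Phc2 (16.29 and 16.30 (WT) against 15.29 and 15.19 (TIAR KO)) fell. Phf19, a partner of the methyltransferase complex that marks silent chromatin, had the largest change of the list, -4.14 ± 0.26 (SE, n = 2 against 2, limma adjusted p = 0.00119). Between the knockouts Cbx2 was higher and Phf19 lower in TIAR KO (1.27 and -3.88), and Phf1, a related partner, was higher in TIAR KO by 1.74 ± 0.19 (SE, n = 2 against 2, limma adjusted p = 0.0329). Of 11 Trithorax genes and H3K27 demethylases 1 was called, the demethylase Kdm6b, which rose in TIAR KO by 1.31 ± 0.15 (SE, n = 2 against 2, limma adjusted p = 0.00867).

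Of 13 genes that act upstream of Hox genes in the embryo, among them the Cdx factors and genes of retinoic acid, 1 was called in TIA1 KO and 2 in TIAR KO, all higher, beside 2.18% and 3.39% of all probes called higher. Cyp26b1, which breaks down retinoic acid, gave 8.56 and 8.32 (WT), 11.22 and 11.56 (TIA1 KO) and 8.21 and 8.22 (TIAR KO). It was high on the 2 TIA1 KO arrays alone and rose by 2.95 ± 0.21 (SE, n = 2 against 2, limma adjusted p = 0.0125). Of the 2 in TIAR KO, Rarb, a retinoic acid receptor, rose by 1.10 ± 0.14 (SE, n = 2 against 2, limma adjusted p = 0.0123). Cdx2, Cdx4, Aldh1a2, Cyp26a1 and Cyp26c1 were not above background on any array. Of the markers of other cell types, 3 of 6 epithelial, 1 of 3 muscle and 0 of 8 endothelial and neural genes were called higher in TIAR KO, and Cd14, 1 of 4 haematopoietic markers, was lower. In TIA1 KO 1 of these 21 genes, Krt8, was called. Krt18 (7.29 and 7.30 (WT) against 10.08 and 9.95 (TIAR KO)) had the largest of these changes. On the TIAR KO arrays 4 of 6 epithelial, 2 to 3 of 4 endothelial, 2 of 4 haematopoietic, 1 of 3 muscle and 1 of 4 neural markers were above background. Among those that were not above it were Epcam, Ptprc, Cdh5, Myod1 and Sox2, 1 of each list. The part of these markers in the Hox values was not tested.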

How the data were processed

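For each of the 3 MEF lines, RNA of 2 samples was labelled with Cy3 for Agilent SurePrint G3 mouse arrays. The authors deposited the intensity of each spot with its local background and flags, from Feature Extraction 10.7.3.1, and a table of normalized log2 values. From the deposited intensities, background was corrected by normexp (offset 50), and values were taken to log2, adjusted by loess and quantile normalized. Control and outlier spots were left out and spots of a probe averaged. Each comparison was fitted with limma 3.58.1 on its 4 arrays, with p-values adjusted by Benjamini-Hochberg over all 55681 probes. The authors' table correlated with these values at 0.997 to 0.999 for the same array and served as an alternative. Positions are those of the files (mm9). The deposited files and RefSeq accessions gave gene names. Lists of cofactors, regulators, neighbours and markers (108 of 116 genes matched) and the Hox genes themselves were chosen with earlier results of these data known. Hox genes are named from their brightest probe, with other probes where they differ, and of the lists the members called and up to 4 others. Results of some genes are not reported here, though counts include them. The test was run on simulated data first. P-values measure only the spread between these samples, and with 2 arrays a group the precision is low.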

Additional observations from a re-analysis of the deposited data

Results flagged for a closer look

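In 23 Hox genes the 2 knockouts differed from each other by the direct limma test (2 arrays against 2), beside 3.35% of all probes. The values are log2 differences, TIAR KO minus TIA1 KO, as fitted, also where 1 side was not above background. In the Hoxb cluster they were 4.59 for Hoxb2, 2.67 for Hoxb3, 4.13 for Hoxb5, 5.91 for Hoxb6, 4.61 for Hoxb7, 1.86 for Hoxb8 and 2.38 for Hoxb9. In the Hoxc cluster they were 2.30 for Hoxc4, 1.74 for Hoxc5, 4.65 for Hoxc6, 4.21 for Hoxc9 and 2.89 for Hoxc13. Of the Hoxa and Hoxd genes that were higher in TIAR KO, the differences were 3.17 for Hoxa2, 2.55 for Hoxa3, 1.43 for Hoxd3, 2.16 for Hoxd4 and 3.57 for Hoxd8. The genes lower in TIAR KO had differences of -2.64 for Hoxa7, -2.66 for Hoxa9, -3.53 for Hoxa10, -4.49 for Hoxa11, -2.94 for Hoxd10 and -5.49 for Hoxd13. Both TIAR KO arrays lay on the same side of both TIA1 KO arrays for each of these genes. The genes were picked by the test, so this adds no support to the calls. The calls were lost in the fits that left out either TIAR KO array, and with replicate number as a block. Without the first or the second TIAR KO array the differences were 4.29 and 4.13 for Hoxc9, 5.87 and 5.94 for Hoxb6 and -3.05 and -2.22 for Hoxa7.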

How the results depend on the processing

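All Hox genes called in a comparison kept their sign under every alternative tried. In TIAR KO against WT, 14 of the 19 called genes passed under all alternatives. Hoxb4 was lost with the processed intensities, with scaling to a common median and with all 3 groups in 1 fit, and Hoxa7, Hoxb4, Hoxc5, Hoxd3 and Hoxd11 were lost when 1 array was left out. Leaving out 1 array gave 16 to 18 genes and 18 to 21 probes here, against 19 and 22. In TIA1 KO against WT, where 5 genes and 5 probes were called, the processed intensities scaled to the 75th percentile called 0 genes and 0 probes, scaling to a common median 20 and 21, all 3 groups in 1 fit 9 and 10, and the probes well above background alone 7 and 8. Leaving out 1 array gave 0 to 14 genes and 0 to 15 probes. In TIAR KO against TIA1 KO, where 23 genes and 25 probes were called, the processed intensities called 10 of each, and leaving out 1 array gave 0 to 28 genes and 0 to 30 probes. For a group left with 1 array the spread was taken from the rest. When either TIA1 KO array was left out, more of all probes were called too, in both comparisons with that line. For fits of TIAR KO that left out a TIAR KO or WT array, the share of all probes is not given here. The changes in Hox counts between these fits are therefore not read as Hox results. Over all probes, the main fit of TIA1 KO against WT called 3.54% and scaling to a common median 28.8%. For all 3 groups in 1 fit, and for the probes well above background alone, the share of all probes is not given here. Those Hox counts therefore stand without a comparison. Between the knockouts the main fit called 3.35% of all probes and the processed intensities 2.71%. The cause of these changes in the counts was not tested. The processed intensities moved the median of all probes by 1.98 in TIA1 KO against WT and by -1.85 between the knockouts, and the common median by -0.68 and 0.63, so values under these settings are relative to those shifts.

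Replicate numbers are shared between the groups but nothing in the labels pairs the samples, and deviations of same-numbered arrays correlated at 0.08 (WT and TIA1 KO), 0.03 (WT and TIAR KO) and -0.07 (the knockouts). With the replicate block 4 Hox genes and 4 probes were called in TIA1 KO (Hoxd10 was lost), 19 and 22 in TIAR KO, and 0 and 0 between the knockouts, where all probes had 0 calls as well.

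On the TIA1 KO arrays 10 and 13 of the 44 Hox probes were well above background, against 24 to 27 on the others, which limits what could be measured as lower there.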
